A study of Mus musculus with 16 samples.

Results

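The cell cycle and proliferation genes are 35 rows of a table of 20992 genes measured by RNA-seq in mouse aortic valves, chosen by name as genes whose RNA is made in dividing cells. All 35 were present in the table, which writes symbols in capitals (MKI67, TOP2A, CCNB2, MCM3). The members are 10 genes of DNA replication (Mcm2 to Mcm7, Pcna, Rrm1, Rrm2 and Tyms) and 25 genes of mitosis and cytokinesis. The study set out to compare valves under high cholesterol, high blood pressure and their combination, with 4 mice planned per group on the C57BL/6J background. HC/HT mice lacked ApoE and also carried transgenes for human renin and human angiotensinogen (3 valves used, 2 from females). HC mice lacked ApoE, the lipoprotein ligand whose loss raises plasma cholesterol (4 valves, 3 from females). HT mice had intact Apoe and carried the human renin and human angiotensinogen transgenes, which raise angiotensin II (4 valves, 2 from females). CON mice were the controls with neither change (4 valves, 1 from a female). The labels do not give the age of the mice, the diet, or the promoters that drive the transgenes, and they name neither litters nor pools, so the spread given here is that between these 15 libraries.

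A cell that enters the cycle first passes the G1 restriction point, where cyclin D kinases release the E2F transcription factors from the retinoblastoma protein. E2F then switches on the replication genes, which load the MCM helicase, supply deoxynucleotides and copy the DNA. The mitotic genes follow in G2, when the B-Myb and FOXM1 complexes act through the cell cycle homology region (CHR) of their promoters. Many of these promoters also hold CCAAT boxes. Healthy adult valves are built mainly of quiescent interstitial cells under a sheet of endothelium, and macrophages that enter a hypercholesterolaemic tissue can also divide there.

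The promoters of the members show how far the replication and mitotic genes differ in these letters, and they are a property that the choice of the members did not use. RefSeq promoter windows (build GRCm38.p6, 250 bases before to 50 bases after the start) were matched for 30 of the 35 members. Each window was searched on both strands for the CHR (TTTGAA or TTTAAA), the CCAAT box (CCAAT) and an E2F motif (GCGGGAA or GCGCGAA), and the letters of no motif contain those of another. A CHR was present in 19 of 21 mitotic and 3 of 9 replication promoters, against 30.6% of the 27025 genes with a window. CCAAT was present in 18 of 21 mitotic and 8 of 9 replication promoters, against 41.1% of all genes. The E2F letters were present in 1 of 21 mitotic and 5 of 9 replication promoters, against 6.86% of all genes. In the 250 bases before the start alone, the CHR was found in 13 mitotic and 2 replication promoters, against 28.1% of all genes. The other matches lie at or past the start. A match is a description of letters and not a mapped site. The stretches of 250 bases before the start are given for 3 mitotic and 2 replication genes, 5′ to 3′ on the gene's strand, with every match to any of the 3 motifs in capitals.
Mki67, chr7:135716380-135716629, minus strand: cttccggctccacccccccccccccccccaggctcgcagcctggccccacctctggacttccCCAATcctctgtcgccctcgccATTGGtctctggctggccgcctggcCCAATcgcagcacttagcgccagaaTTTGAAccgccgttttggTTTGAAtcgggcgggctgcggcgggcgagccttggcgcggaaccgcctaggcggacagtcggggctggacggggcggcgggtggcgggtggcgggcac
Ccnb2, chr9:70421555-70421804, minus strand: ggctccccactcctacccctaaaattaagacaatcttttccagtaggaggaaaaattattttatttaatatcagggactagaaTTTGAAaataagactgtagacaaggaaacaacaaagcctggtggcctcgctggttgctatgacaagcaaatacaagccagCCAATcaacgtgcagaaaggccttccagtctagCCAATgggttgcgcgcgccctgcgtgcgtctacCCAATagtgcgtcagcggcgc
Cdk1, chr10:69352913-69353162, minus strand: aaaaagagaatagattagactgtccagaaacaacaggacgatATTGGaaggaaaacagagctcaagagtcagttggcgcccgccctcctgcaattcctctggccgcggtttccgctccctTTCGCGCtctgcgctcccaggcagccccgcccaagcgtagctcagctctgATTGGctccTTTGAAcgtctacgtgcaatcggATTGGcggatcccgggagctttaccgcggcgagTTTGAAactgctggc
Mcm3, chr1:20820313-20820562, minus strand: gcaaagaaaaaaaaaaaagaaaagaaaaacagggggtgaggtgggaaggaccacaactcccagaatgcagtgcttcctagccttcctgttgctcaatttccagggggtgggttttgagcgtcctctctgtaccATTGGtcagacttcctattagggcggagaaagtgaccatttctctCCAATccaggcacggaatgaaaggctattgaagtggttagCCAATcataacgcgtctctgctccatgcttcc
Mcm6, chr1:128359706-128359955, minus strand: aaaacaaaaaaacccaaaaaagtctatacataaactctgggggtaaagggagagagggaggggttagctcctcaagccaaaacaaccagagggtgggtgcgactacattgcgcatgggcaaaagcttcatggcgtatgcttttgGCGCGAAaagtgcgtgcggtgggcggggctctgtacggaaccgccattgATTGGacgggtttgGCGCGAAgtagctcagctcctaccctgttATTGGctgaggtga
These were chosen because Mki67, Ccnb2 and Cdk1 had higher mean levels in the knockout valves while Mcm3 and Mcm6 had lower means in HC/HT valves than in CON valves. Other members met the same conditions with other letters. Nusap1 had means of 6.79 units in HC/HT and 8.03 in HC, against 4.29 in HT and 4.21 in CON. Its stretch holds no match to the 3 motifs. Mcm2 had a mean of 5.22 units in HC/HT against 5.41 in CON. Its stretch holds 1 CHR match, 1 CCAAT match and no E2F match. A relation of the motifs to the levels was not tested. Mki67 holds 2 CHR and 3 CCAAT matches in this stretch, and Ccnb2 holds 1 CHR and 3 CCAAT matches. Cdk1 holds 2 CHR matches, 3 CCAAT matches and 1 E2F match, the only mitotic promoter of the 21 with these E2F letters. Mcm3 holds 3 CCAAT matches and no CHR in this stretch, with an E2F match only at or past the start. Mcm6 holds 2 E2F and 2 CCAAT matches and no CHR.

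Values are the authors' normalised counts, rescaled by 1 common factor so that the median library total is 1000000, and are called units here. The authors' totals are nearly equal in all 15 libraries, so sequencing depth is unknown, and no counting interval is given. A deposited value of 1 equals 0.098 units. The smallest deposited value above 0 was 1 in HT replicate 2 and 2 (0.196 units) in every other library. Levels near 1 unit are therefore coarse, and 15 of the 35 members averaged under 5 units. A library at 0 occurred in 5 members (Ccnb1, Cdk1, Aurka, Aurkb and Rrm2), and 18 members were at 1 unit or more in every library. All 35 passed the filter for testing. The mouse genome annotation holds processed pseudogenes named after Ccnb1, Ccnb2, Pcna and Tyms, and the sources used here do not say how the authors placed reads shared with such copies, so these 4 levels are less certain.

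The labels were checked first. Apoe was between 2.15 and 12.3 units in the 7 knockout valves (HC/HT and HC), against 56.6 to 1014 units in the 8 Apoe-intact valves (HT and CON), and Xist matched the labelled sex in 15 of 15 mice. All 8 valve interstitial and fibroblast markers were present, with summed levels between 4667 and 16255 units. Between 32.4% and 62.7% of a library's total lay in 4 rows (RN45S, a ribosomal RNA precursor, and 3 unannotated transcripts), and the median-of-ratios factors that allow for this ran from 0.626 to 1.32. Replicates 2 and 3 of HT and replicate 2 of HC/HT correlated least with the other libraries. The submitters' own sample numbers run from 1 to 7 in knockout and from 9 to 17 in intact valves. If these numbers mark an order of handling, it cannot be told apart from the Apoe genotype.

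Levels of the members varied together from valve to valve within the groups. With deposited totals HT replicate 1 was the highest HT valve in 33 of 35 members. HT replicate 2 was the lowest HT valve in 24 and the lowest of all 15 valves in 17. The median-of-ratios factor was 1.076 in HT replicate 1, the highest in HT, and 0.626 in HT replicate 2, the lowest of all 15. Genes in general therefore also read higher in the first and lower in the second, and the share of all genes with these ranks was not taken. CON replicate 4 was the lowest CON valve in 25 members and HC replicate 4 the lowest HC valve in 25. These 2 valves had the highest share of their group's totals in the 4 most abundant rows, at 57.8% in CON replicate 4 and 54.1% in HC replicate 4, and their place depended on the scaling. As a mean over the 35 members, each taken relative to its own 15-valve mean on the log2 scale, HC/HT valves stood at 0.17 ± 0.21 (SD, n = 3), HC valves at 0.38 ± 0.26 (n = 4), HT valves at -0.36 ± 0.65 (n = 4) and CON valves at -0.15 ± 0.35 (n = 4). HT had the widest spread of the 4 groups, from -1.04 in replicate 2 to 0.53 in replicate 1, and overlapped with every other group. With median-of-ratios scaling the means were 0.21 ± 0.22 in HC/HT, 0.26 ± 0.15 in HC, -0.14 ± 0.48 in HT and -0.27 ± 0.18 in CON, so HT and CON changed places while both knockout groups stayed above them. By valve, median-of-ratios scaling put HC replicate 1 (0.07) below HC replicate 4 (0.20), and CON replicate 4 (-0.38) beside CON replicates 1 and 2 (-0.36 and -0.34). HT replicate 1 (0.45) and HT replicate 2 (-0.61) stayed the highest and the lowest HT valve. In bulk tissue, fewer cycling cells and less of these RNAs per cycling cell cannot be told apart.

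**Figure D1:**
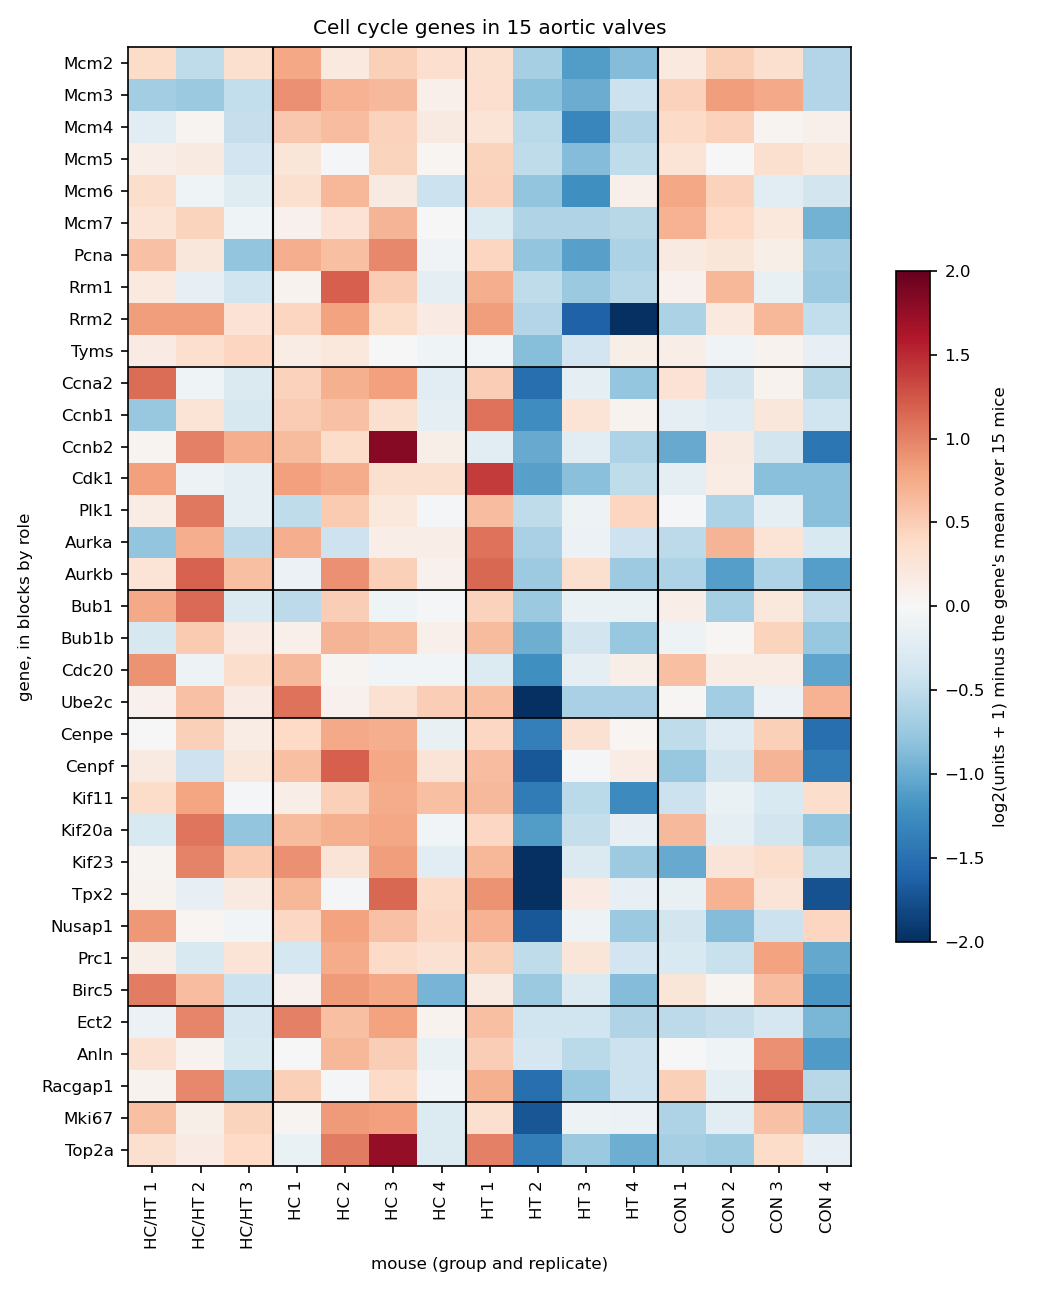
Level of each of the 35 members (down the page, in blocks by role) in each of the 15 valves (across, by group and replicate), as log2(units + 1) minus the gene's mean over the valves, with the colour scale ending at -2 and 2. The column of HT replicate 1 is red in nearly all rows, that of HT replicate 2 is blue, and the 4 HC columns are mostly red.

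The mitotic and replication members had different orders of group means with deposited totals. The mitotic mean was 0.23 ± 0.24 in HC/HT valves, 0.39 ± 0.27 in HC, -0.31 ± 0.74 in HT and -0.25 ± 0.36 in CON. The replication mean was 0.03 ± 0.19 in HC/HT, 0.35 ± 0.24 in HC, -0.48 ± 0.58 in HT and 0.10 ± 0.36 in CON. The CON mean lay beside that of HT for the mitotic genes and between those of HC and HC/HT for the replication genes, all within overlapping spreads. The place of CON in the replication genes depended on the scaling. With median-of-ratios factors the replication means were 0.06 ± 0.12 in HC/HT, 0.22 ± 0.11 in HC, -0.23 ± 0.39 in HT and -0.03 ± 0.06 in CON, so CON fell below both knockout groups. With the same factors the mitotic means were 0.27 in HC/HT, 0.27 in HC, -0.11 in HT and -0.36 in CON, and the 4 CON valves (-0.49 to -0.01) lay below all 3 HC/HT (0.10 to 0.57) and all 4 HC valves (0.06 to 0.42).

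**Figure D2:**
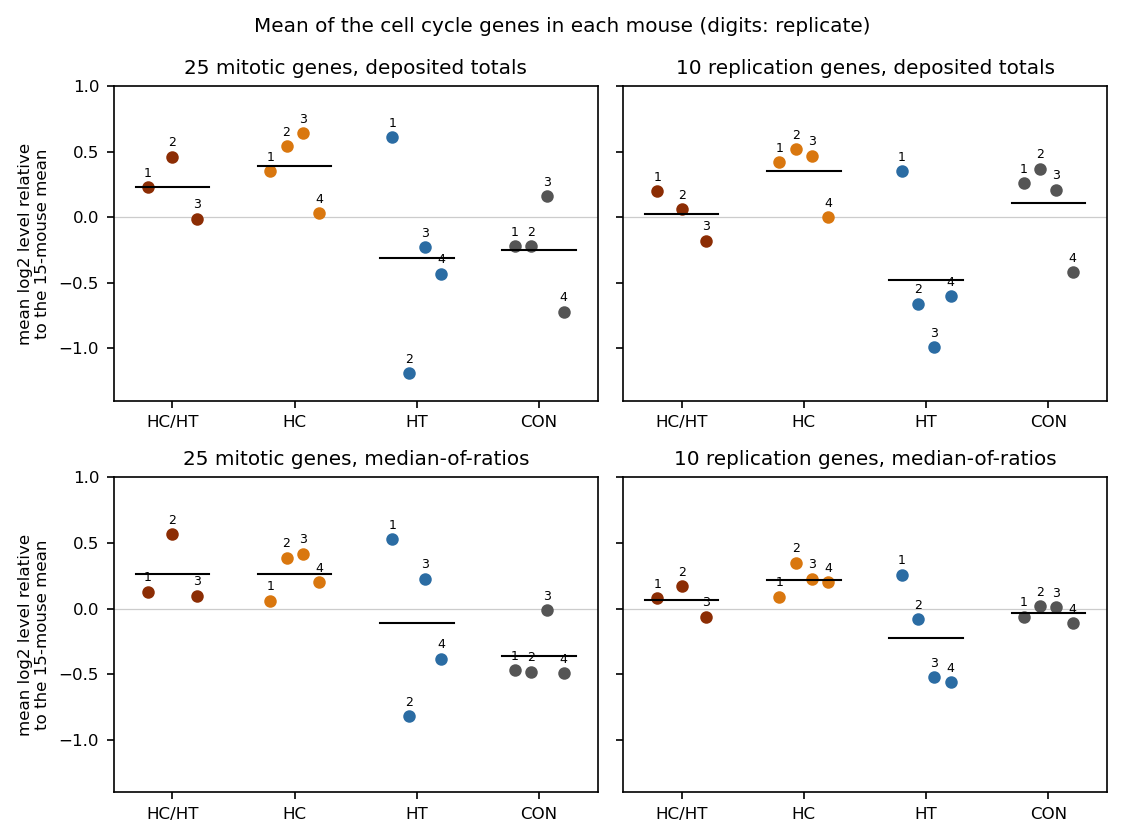
Mean of the 25 mitotic genes (left) and the 10 replication genes (right) in each valve on the log2 scale, relative to the mean over the 15 valves, with the deposited totals (top) and median-of-ratios scaling (bottom). Points are valves labelled with their replicate and lines are group means: HT replicates 1 and 2 lie far apart in the mitotic genes under both scalings, at 0.61 and -1.19 with deposited totals.

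Among the replication members, the MCM subunits form the ring-shaped helicase that unwinds DNA at the fork. Mcm2 was at 6.46, 3.04 and 6.17 units in HC/HT, 8.91, 5.58, 7.05 and 6.27 units in HC, 6.17, 2.64, 1.67 and 2.15 units in HT, and 5.58, 7.05, 6.17 and 2.84 units in CON. HT replicates 2 to 4 were below every CON valve, while HT replicate 1 was inside the CON range. Mcm3 was at 2.74, 2.64 and 3.33 units in HC/HT, 10.4, 8.82, 8.52 and 5.49 units in HC, 6.66, 2.45, 2.06 and 3.53 units in HT, and 7.35, 9.89, 9.31 and 3.04 units in CON. All 3 HC/HT valves were below all 4 HC valves and below 3 of 4 CON valves, and CON replicate 4 was inside the HC/HT range. Mcm4 was at 11.0, 13.6 and 9.31 units in HC/HT, 19.4, 20.6, 18.5 and 15.0 units in HC, 16.1, 8.72, 4.70 and 8.33 units in HT, and 17.5, 18.5, 13.7 and 14.1 units in CON. HC/HT lay below HC and, narrowly, below CON, with no overlap. Mcm5, Mcm6 and Mcm7 did not separate HC/HT from CON or from HC, and Mcm7 was higher in all 3 HC/HT valves (9.50 to 14.2 units) than in the 4 HT valves (6.37 to 8.23 units).

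The other replication members are the sliding clamp and the enzymes that supply DNA building blocks. Pcna, the clamp that holds DNA polymerase on its template, was at 48.6, 37.8 and 18.3 units in HC/HT, 53.7, 49.3, 63.6 and 30.6 units in HC, 43.8, 18.2, 14.7 and 20.4 units in HT, and 36.5, 38.2, 34.8 and 19.5 units in CON. Every pair of groups overlapped. Rrm2, the regulated small subunit of ribonucleotide reductase, was at 6.66, 6.66 and 4.21 units in HC/HT, 4.80, 6.46, 4.51 and 3.82 units in HC, 6.66, 1.86, 0.392 and 0 units in HT, and 1.76, 3.92, 5.78 and 2.06 units in CON. The 3 lowest HT valves were below all 7 knockout valves, and HT replicate 1 was as high as the highest of them. Rrm1, its large subunit, ranged from 8.42 to 13.1 units in HC/HT, from 9.89 to 27.2 in HC, from 6.37 to 19.4 in HT and from 6.46 to 18.7 in CON. Tyms, which makes thymidylate, was higher in all 3 HC/HT valves (17.3 to 21.0 units) than in the 4 HT valves (8.03 to 16.6 units) and the 4 CON valves (13.5 to 16.8 units).

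The cyclins and mitotic kinases drive entry into mitosis. Ccnb1, which encodes cyclin B1, was at 0.392, 1.86 and 0.882 units in HC/HT, 2.35, 2.55, 1.96 and 1.08 units in HC, 4.02, 0, 1.86 and 1.47 units in HT, and 1.08, 0.980, 1.76 and 0.784 units in CON. The groups overlapped, and the highest and the lowest valve were both HT. Ccnb2 (mm10 chr9:70407692-70421547), which encodes the related cyclin B2, was at 2.94, 6.66 and 5.29 units in HC/HT, 4.90, 3.92, 12.5 and 3.13 units in HC, 2.25, 0.882, 2.25 and 1.47 units in HT, and 0.882, 3.33, 1.96 and 0.392 units in CON. All 7 knockout valves lay above 7 of the 8 intact valves, the exception being CON replicate 2. Cdk1, the kinase that cyclin B activates, was at 2.74, 0.980 and 0.882 units in HC/HT, 2.74, 2.55, 1.67 and 1.67 units in HC, 4.60, 0, 0.196 and 0.490 units in HT, and 0.882, 1.37, 0.196 and 0.196 units in CON. HC lay above CON without overlap, and the highest of the 15 valves was HT replicate 1. Aurkb (mm10 chr11:69045647-69051664), the kinase of the chromosomal passenger complex that corrects spindle attachments, was at 1.57, 3.82 and 2.25 units in HC/HT, 0.980, 3.04, 1.96 and 1.27 units in HC, 3.72, 0.294, 1.67 and 0.294 units in HT, and 0.392, 0, 0.392 and 0 units in CON. All CON valves were below every knockout valve, and the HT valves spread from the CON range to near the top of the knockout range. Aurka, Ccna2 and Plk1 overlapped between HC/HT and CON and between HC and CON.

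All 9 spindle, motor and kinetochore members were higher in HC than in CON by the fitted difference, each with overlapping valves. Cenpf (mm10 chr1:189640606-189688086), a large kinetochore protein of G2 and mitosis, was at 11.6, 7.35 and 12.0 units in HC/HT, 15.9, 24.7, 18.1 and 12.4 units in HC, 16.1, 2.45, 9.99 and 11.4 units in HT, and 5.58, 7.64, 16.8 and 3.23 units in CON. HC lay above HC/HT without overlap, and CON replicate 3 reached into the HC range. Nusap1, which bundles spindle microtubules, was at 10.2, 5.29 and 4.90 units in HC/HT, 7.15, 9.70, 8.13 and 7.15 units in HC, 8.91, 0.882, 4.70 and 2.64 units in HT, and 3.72, 2.35, 3.53 and 7.25 units in CON. The knockout valves lay above 6 of the 8 intact valves, with HT replicate 1 and CON replicate 4 inside their range. Ect2, the exchange factor that activates RhoA at the cleavage furrow, was higher in the 4 HC valves (2.15 to 5.00 units) than in the 4 CON valves (0.588 to 1.37 units). The cytokinesis genes Anln and Racgap1 overlapped between every tested group and CON.

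Mki67 and Top2a are the most used markers of cycling cells, the first encoding the Ki-67 coat of mitotic chromosomes and the second the topoisomerase that untangles them. Mki67 (mm10 chr7:135689784-135716361) was at 104, 74.3 and 92.9 units in HC/HT, 70.7, 124, 121 and 56.4 units in HC, 85.4, 20.2, 63.6 and 62.6 units in HT, and 43.9, 58.8, 103 and 38.9 units in CON. CON replicate 3 was as high as the HC/HT valves, and the other 3 CON valves were below them. Top2a (mm10 chr11:98992943-99024189) was at 23.0, 20.6 and 24.3 units in HC/HT, 16.6, 38.6, 64.1 and 15.0 units in HC, 37.6, 6.37, 10.5 and 8.82 units in HT, and 11.1, 10.7, 23.9 and 16.1 units in CON. The 3 HC/HT valves were close together, whereas HC ranged from 15.0 to 64.1 units and HT replicate 1 stood apart from its group.

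**Figure D3:**
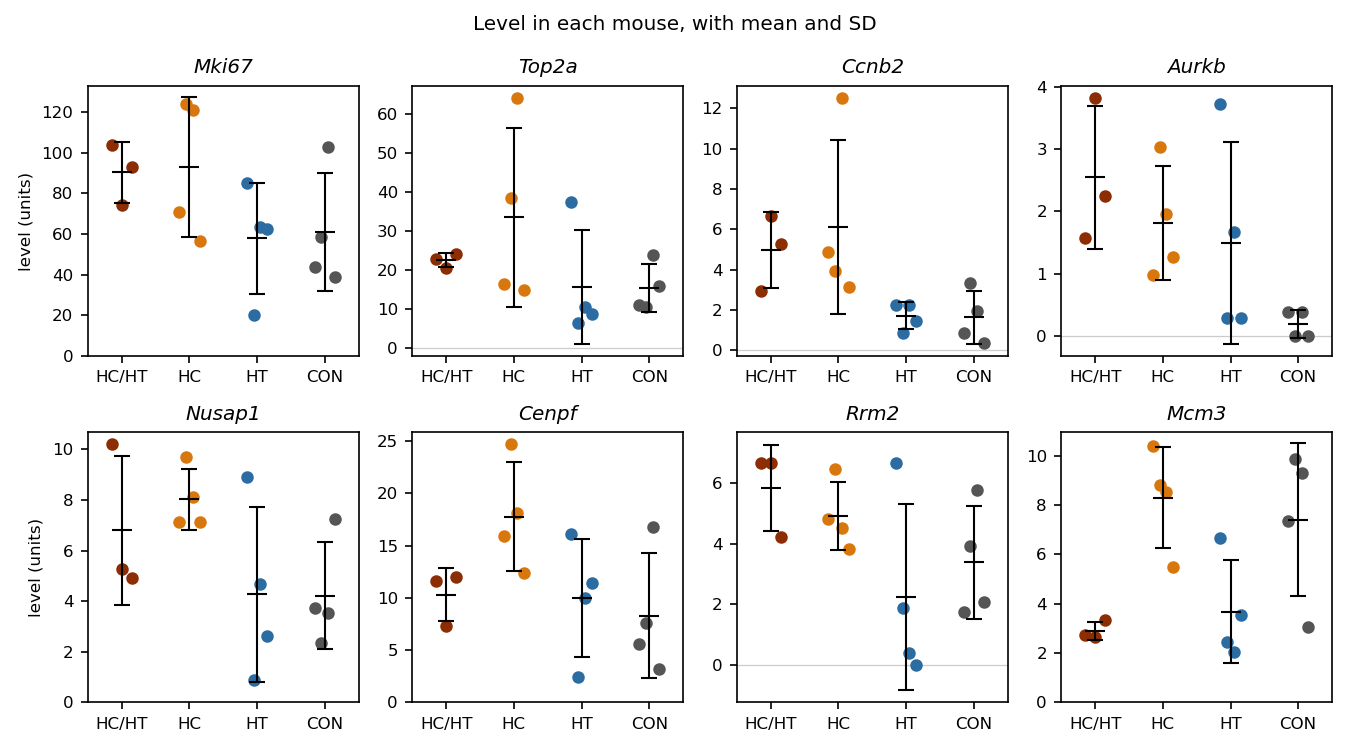
Level in units of 8 members in each valve (points), with the group mean and SD (bars), groups from left to right HC/HT, HC, HT and CON. Aurkb is at 0.392 units or less in the 4 CON valves, and Mcm3 is between 2.64 and 3.33 units in the 3 HC/HT valves.

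ApoE loss alone was read from HC against CON. Levels of 32 of 35 members were higher in HC by the fitted difference, against 47.3% of all 15004 genes tested, and none of the 35 passed at an adjusted p under 0.05 (limma, Benjamini-Hochberg over all genes), where 0.167% of all genes (25) passed. The median log2 difference was 0.53 over the members and -0.02 over all genes. By role it was 0.62 for the 25 mitotic genes (23 above 0) and 0.13 for the 10 replication genes (9 above 0). At an unadjusted p under 0.05 there were 6 members higher and none lower, all 6 mitotic, where 2.56% of all genes were higher and 1.45% lower. Without HC replicate 2 that count was 1, and the replication median turned to -0.09 with 4 of 10 above 0. The share of all genes at an unadjusted p under 0.05 was not taken without this valve. Without CON replicate 4 the replication median was 0.01 with 5 of 10 above 0. The mitotic median ran from 0.50 to 0.72 when each valve was left out. Cenpf differed by 1.36 ± 0.48 (log2 difference ± SE, adjusted p = 0.6324), Aurkb by 1.20 ± 0.45 (adjusted p = 0.8022) and Ccnb2 by 1.15 ± 0.46 (adjusted p = 0.9154). The others were Nusap1 (1.10), Ect2 (1.02) and Cenpe (0.97), a kinetochore motor. HC and CON did not overlap in Cdk1, Aurkb and Ect2, each higher in HC, a separation seen upward in 2.81% of all genes. With limma array weights, which give less weight to aberrant libraries, 3 members passed as higher in HC: Aurkb (1.36, adjusted p = 0.0234), Nusap1 (1.25, adjusted p = 0.02952) and Ect2 (1.15, adjusted p = 0.04489). With these weights 316 of all 15004 genes passed, against 25 without them.

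The renin and angiotensinogen transgenes alone were read from HT against CON. No member passed (limma, adjusted p under 0.05), and neither did any other gene (0% of 15004), while 12.8% of all genes (1922) had an unadjusted p under 0.05 by the same test, mostly lower. All 10 replication members were lower in HT (median -0.62), and 10 of 25 mitotic members were higher (median -0.12). The median was -0.24 over all members and -0.42 over all genes, of which 13.3% were higher. Mcm4 differed by -0.87 ± 0.35 (adjusted p = 0.3611) and Mcm3 by -0.91 ± 0.41 (adjusted p = 0.3769), the only members with an unadjusted p under 0.05, where 12.6% of all genes were lower by that measure. Aurkb was 0.86 ± 0.43 higher in HT (adjusted p = 0.3927). No member separated the 4 HT valves from the 4 CON valves in either direction, where 4.15% of all genes were lower and 0.0666% higher without overlap. The direction of the list depended on the scaling. With median-of-ratios factors the median of all genes moved from -0.42 to -0.01, that of the members became 0.17 with 21 of 35 above 0, and that of the replication genes stayed below 0 at -0.23 with 2 of 10 above 0. The direction also rested on single HT valves. Without HT replicate 1 the member median with deposited totals was -0.51, equal to that of all genes, and 8 members had an unadjusted p under 0.05. The share of all genes at that p was not taken in this fit. Without HT replicate 2 the member median was 0.02, with 18 of 25 mitotic members above 0 (median 0.25) and 0 of 10 replication members.

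The combination was read from HC/HT against CON. The median log2 difference over the 25 mitotic members was 0.57 (22 above 0), against -0.14 over the 10 replication members (4 above 0) and -0.20 over all genes, of which 33.2% were above 0. No member passed, where 0.467% of all genes (70) did. Aurkb differed by 1.54 ± 0.48 (adjusted p = 0.1706), Ccnb2 by 1.05 ± 0.49 (adjusted p = 0.4122) and Mcm3 by -1.13 ± 0.45 (adjusted p = 0.3297), the only members with an unadjusted p under 0.05, where 2.99% of all genes were higher and 8.40% lower. Aurkb and Tyms were higher and Mcm4 lower in HC/HT without overlap, separations seen in 2.89% and 7.66% of all genes. All 4 spindle checkpoint and anaphase genes (median 0.43) and all 9 motor, kinetochore and spindle genes (median 0.57) were above 0, against 5 of 7 cyclins and mitotic kinases (median 0.57) and 2 of 3 cytokinesis genes (median 0.12). With median-of-ratios scaling the median of all genes moved from -0.20 to -0.02, that of the mitotic members became 0.73 (24 of 25 above 0), and that of the replication members turned to 0.05 (6 of 10 above 0), while Mcm3 stayed at -0.94. The replication median also turned to 0.09 (6 of 10 above 0) without CON replicate 2 and was -0.48 (2 of 10 above 0) without HC/HT replicate 1, and the median of all members was 0.23 without CON replicate 4. With array weights Aurkb (1.63, adjusted p = 0.02968) and Mcm3 (-1.35, adjusted p = 0.04098) passed, where 726 of all 15004 genes did.

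**Figure D4:**
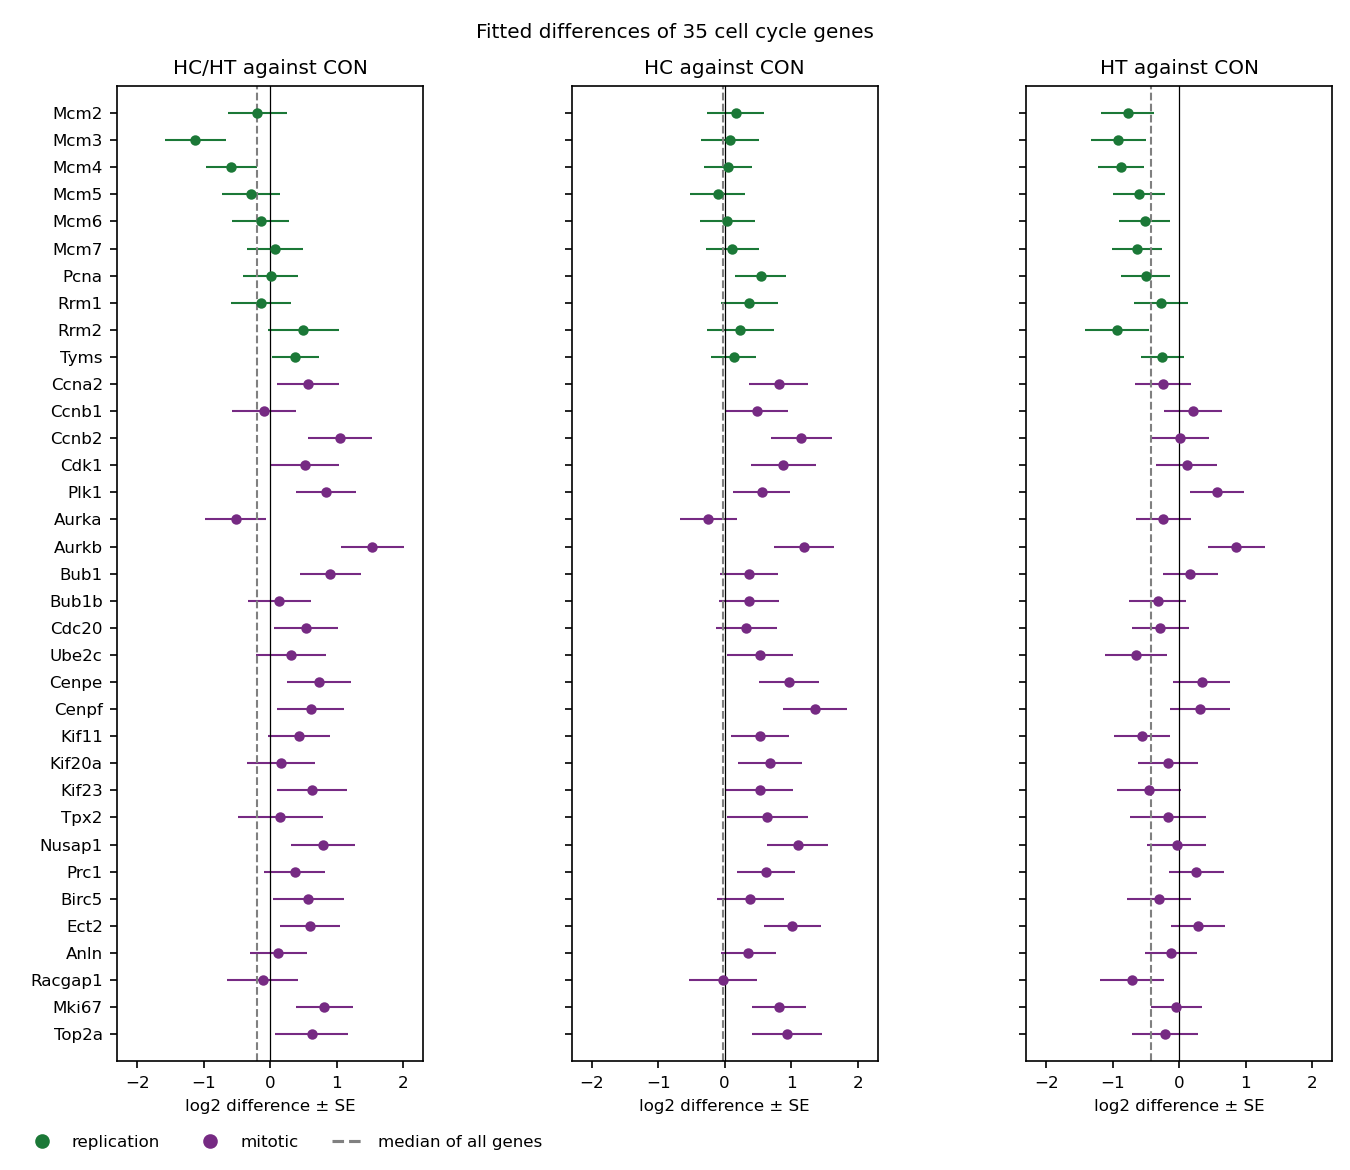
Fitted log2 difference ± SE of the 35 members in HC/HT, HC and HT against the same 4 CON valves (solid line, 0; dashed line, median of all genes tested). Mitotic genes (purple) lie mostly right of 0 in HC/HT and HC, and all 10 replication genes (green) lie left of 0 in HT with the deposited totals. The 3 panels share the CON valves.

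Adding hypertension to ApoE loss was read from HC/HT against HC, in which 8 of 35 members were above 0 (30.6% of all genes), with a median of -0.23 against -0.18 over all genes. No gene of the table passed (0%, limma), and 4.41% of all genes (661) had an unadjusted p under 0.05. Mcm3 differed by -1.20 ± 0.44 (adjusted p = 0.9843) and was the only member at an unadjusted p under 0.05, where 3.71% of all genes were lower. Cenpf, Mcm3 and Mcm4 were lower in HC/HT without overlap, where 4.53% of all genes were. The member median was -0.08 without HC/HT replicate 3, -0.13 without HC replicate 2 and -0.15 without HC replicate 3. Adding ApoE loss to hypertension was read from HC/HT against HT. Here 32 of 35 members were above 0 (69.5% of all genes), with a median of 0.51 against 0.21. No member passed, where 0.373% of all genes (56) did. At an unadjusted p under 0.05 there were 5 members higher, where 7.32% of all genes were: Rrm2 (1.43 ± 0.51, adjusted p = 0.3407), Kif23 (1.08), Ccnb2 (1.04), Kif11 (0.99) and Mki67 (0.86). Ccnb2, Mcm7 and Tyms were higher in HC/HT without overlap, where 4.99% of all genes were. With median-of-ratios scaling the median of all genes was -0.01 and that of the members 0.38, with 29 above 0. Without HT replicate 1 all 35 members were above 0 (75.9% of all genes) and 14 had an unadjusted p under 0.05. Rrm2 passed there (2.02, adjusted p = 0.02881), where 260 of 14935 genes did. Without HT replicate 2 the member median was 0.23 with 27 above 0, and 1 member rather than 5 had an unadjusted p under 0.05. Leaving out HC/HT replicate 1 or HC/HT replicate 2 singly also gave 1. The shares of all genes at an unadjusted p under 0.05 were not taken in these fits with a valve left out. Without the 3 least correlated libraries (1 HC/HT and 2 HT valves) the member median was 0.00 with 18 of 35 above 0. The interaction, which asks whether ApoE loss changed a gene differently with and without the transgenes, passed for no gene (0%, limma). An unadjusted p under 0.05 was found in 1.38% of all genes (207) and in none of the members, of which 16 of 35 were above 0 (71.8% of all genes), with a median of -0.03 (-0.24 to 0.31 when each valve was left out) against 0.23 over all genes.

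Both ApoE contrasts were then averaged (HC against CON and HC/HT against HT) to set the 7 knockout valves against the 8 intact ones. The fitted difference was above 0 in 33 of 35 members, against 61.8% of all genes, with a median of 0.52 against 0.09. The exceptions were Mcm3 (-0.07) and Aurka (-0.27). Mitotic members had a median of 0.64 (24 of 25 above 0) and replication members 0.31 (9 of 10). Within the mitotic members, 6 of 7 cyclins and mitotic kinases (median 0.64), 4 of 4 spindle checkpoint and anaphase genes (median 0.56), 9 of 9 motor, kinetochore and spindle genes (median 0.68) and 3 of 3 cytokinesis genes (median 0.30) were above 0. No member passed at an adjusted p under 0.05, where 1.47% of all genes (220) did. At an unadjusted p under 0.05 there were 13 members higher and none lower, where 7.31% of all genes were higher and 2.53% lower. Ccnb2 differed by 1.09 ± 0.34 (adjusted p = 0.1199), Nusap1 by 0.96 ± 0.34 (adjusted p = 0.2147), Aurkb by 0.94 ± 0.33 (adjusted p = 0.2193) and Mki67 by 0.84 ± 0.29 (adjusted p = 0.2243). Top2a (0.88), Rrm2 (0.83), Cenpf (0.83), Ccna2 (0.81), Kif23 (0.80), Kif11 (0.76), Ube2c (0.75), Cenpe (0.68) and Ect2 (0.67) made up the 13. Ube2c charges the anaphase complex with ubiquitin, and Ccna2 encodes the S and G2 cyclin A2. No member separated all 7 knockout from all 8 intact valves, where 0.673% of all genes were higher and 0.120% lower without overlap.

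The knockout comparison depended on single valves in both directions. In the fits with valves left out, the share of all genes at an unadjusted p under 0.05 was not taken. The member counts at that p therefore have no background beside them. The member means of the knockout valves ran from -0.06 to 0.59, and 3 intact valves lay inside that range: HT replicate 1 (0.53), CON replicate 3 (0.18) and CON replicate 2 (-0.05). Without HT replicate 2, the lowest valve at -1.04, 3 members rather than 13 had an unadjusted p under 0.05, the member median was 0.38 and the mitotic median 0.40. The number at an unadjusted p under 0.05 was 5 without HC replicate 2, 7 without HC/HT replicate 1, and 8 when HC/HT replicate 2, HT replicate 4 or CON replicate 2 was left out singly. The replication median was 0.11 without HC/HT replicate 1. Without HT replicate 1 there were 17 members at an unadjusted p under 0.05, and 5 passed as higher in the knockouts: Nusap1 (1.33, adjusted p = 0.01492), Top2a (1.30, adjusted p = 0.0178), Mki67 (1.08, adjusted p = 0.03007), Aurkb (1.24, adjusted p = 0.03231) and Ccna2 (1.13, adjusted p = 0.04207). In that fit 419 of 14935 genes passed, against 220 with all valves. Leaving HT replicate 1 out with median-of-ratios scaling gave no member, where 318 of 14969 genes passed. With all 15 valves and no sex term Ccnb2 passed (1.26, adjusted p = 0.02829), where 344 of 15004 genes did. With array weights Nusap1 passed (1.02, adjusted p = 0.04678), where 479 of 15004 genes did. Without the 3 least correlated libraries the member median was 0.31 with 28 above 0, and 1 rather than 13 had an unadjusted p under 0.05.

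The rest of the cell cycle machinery was read from lists of other genes, of which all in the table are counted. Of 53 other mitotic genes 45 could be tested, and 43 of them were above 0 in the knockouts (median 0.42, against 61.8% of all genes and a median of 0.09), with 10 higher at an unadjusted p under 0.05 and none past the adjusted threshold. The smallest adjusted p was that of Cdca2, which recruits protein phosphatase 1 to anaphase chromatin (1.26 ± 0.34, adjusted p = 0.05399). Against CON the same list was above 0 in 29 of 45 genes in HC/HT (median 0.25), 39 in HC (median 0.35) and 11 in HT (median -0.15). Of all genes 33.2% were above 0 in HC/HT, 47.3% in HC and 13.3% in HT. In HC the condensin subunit Ncapd2 differed by 0.86 and Cdca2 by 1.42, and in HC/HT Cdca2 differed by 1.61 and Iqgap3 by 1.19, none past the threshold.

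Of 29 other replication genes 18 were above 0 in the knockouts (median 0.16), near the 61.8% of all genes, and none passed the threshold. Uhrf1, which keeps DNA methylation through replication, differed by 1.09 ± 0.32 (adjusted p = 0.08883). In HC against CON Uhrf1 differed by 0.94 and the helicase loader Cdc6 by 0.65, and in HC/HT against CON Mcm10 differed by 1.42 ± 0.55 (adjusted p = 0.312), with 13.8 units in HC/HT replicate 2 and at most 3.33 in the other HC/HT valves. The 1 gene of all these lists that passed in any comparison was Dut, the dUTPase that keeps uracil out of DNA. Dut was at 2.35, 2.84 and 3.53 units in HC/HT, against 14.6, 10.5, 11.1 and 10.1 units in CON. The log2 difference was -1.81 ± 0.41 (limma, adjusted p = 0.04191), without overlap, where 7.66% of all genes were lower in HC/HT without overlap. Low levels were not limited to HC/HT. Dut was at 6.17, 5.09, 2.45 and 5.68 units in HT, all below every CON valve. In HC it was at 11.8, 6.07, 10.7 and 7.15 units, with replicates 2 and 4 below every CON valve. Dut passed in 9 of 18 alternatives, with differences from -2.06 to -1.25 and adjusted p from 0.009085 to 0.2433. It did not pass without HC/HT replicate 1 or 2, without CON replicate 1, 2 or 3, without the 3 least correlated libraries, with no filter, with a filter at 5 units, or with only the groups compared.

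Upstream regulators did not share a direction. Their counts are read against the 61.8% of all genes above 0 in the knockouts and 13.3% in HT against CON. Of 8 G1 cyclin and kinase genes tested 4 were above 0 in the knockouts (median 0.11). Cdk6, a cyclin D kinase, differed by 0.84 ± 0.27 in the knockouts (adjusted p = 0.144) and by 1.15 ± 0.39 in HC/HT against CON (adjusted p = 0.2122), and its partner kinase Cdk4 by -0.03 and -0.56 in the same comparisons. Cdc25a, a phosphatase that frees the kinases, differed by -0.53 in HC against CON. Ccnd1, which encodes cyclin D1, was at 142, 62.0 and 35.2 units in HC/HT, 84.0, 60.1, 76.6 and 38.5 units in HC, 151, 27.0, 57.7 and 36.2 units in HT, and 57.8, 63.1, 48.3 and 29.4 units in CON, with overlap throughout. Of 6 inhibitor genes tested 4 were above 0 in the knockouts and 0 of 6 in HT against CON. Cdkn1a, which encodes p21, differed by 0.36 ± 0.28 in the knockouts, Cdkn1c (p57) by -1.57 ± 0.49 in HC/HT against CON (adjusted p = 0.1783) and Cdkn2d (p19) by -1.08 in HC/HT and -0.37 in HC. Of 16 E2F, pocket protein and mitotic transcription factor genes 11 were above 0 in the knockouts (median 0.15). Their smallest p were those of Tfdp2, a partner of the E2F proteins (-0.99 in HC/HT and -0.55 in HC), E2f7, an E2F repressor (0.93 in HC/HT), and its relative E2f8 (0.62 in HC), none past the threshold.

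Among the markers of other cell types, those of macrophages were most clearly higher in the knockout valves. Summed levels of the 15 macrophage markers in the table were 2442 to 3242 units in HC/HT, 2567 to 4876 in HC, 187 to 1652 in HT and 1015 to 1598 in CON, so that every knockout valve exceeded every intact one. All 15 were above 0 in the knockouts and 9 passed as higher, among them Cd68 (2.04 ± 0.30, adjusted p = 0.000371) and Gpnmb (3.30, adjusted p = 1e-05). HT replicate 1, the HT valve with the highest cell cycle levels, also had the highest macrophage sum of the intact valves (1652 units), while HT replicates 2 to 4 had 431, 187 and 605 units. HC/HT replicate 2 (3242 units) and CON replicate 3 (1598 units) likewise had both the highest macrophage sum and the highest cell cycle mean of their groups (0.35 and 0.18). Below the highest valve the orders differed in these 3 groups. HC/HT replicate 1 had the lowest sum of its group (2442 units) with a mean of 0.22. HC/HT replicate 3 had 2624 units with a mean of -0.06. CON replicate 2 had the lowest CON sum (1015 units) with a mean of -0.05, above CON replicates 1 and 4. HT replicate 3 had the lowest sum (187 units) with a mean of -0.45, and HT replicate 2 had 431 units with -1.04. In HC, replicates 2 and 3 had the highest macrophage sums (4271 and 4876 units) and the highest cell cycle means (0.54 and 0.59). HC replicate 4 had 3664 units with the lowest mean (0.02), and HC replicate 1 had 2567 units with a mean of 0.37. These sums and means use deposited totals. The sums were not rescaled by the median-of-ratios factors, which ran from 0.865 to 1.302 within HC, so the order of valves may differ with them. T and NK cell markers summed to 27.1 to 73.7 units in HC/HT, 48.9 to 107 in HC, 1.76 to 22.8 in HT and 13.3 to 58.7 in CON. Neutrophil markers summed to 8.03 to 66.7 units in HC/HT, 9.21 to 38.1 in HC, 1.86 to 8.52 in HT and 3.33 to 51.5 in CON. B and plasma cell markers stayed at or below 6.95 units outside CON replicate 4 (112 units). The defining markers Mpo of immature neutrophils, Mzb1 of plasma cells and Lep of adipocytes were under 1 unit in every library.

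Muscle markers went the other way. None of 8 smooth muscle and none of 10 cardiomyocyte markers was above 0 in the knockouts, with medians of -1.56 and -1.74, and 1 smooth muscle marker passed as lower. Smooth muscle markers summed to 83.7 to 142 units in HC/HT, 108 to 641 in HC, 135 to 1320 in HT and 295 to 2766 in CON. Cardiomyocyte markers summed to 174 to 349 units in HC/HT, 209 to 1331 in HC, 377 to 12107 in HT and 503 to 3369 in CON, and the highest sum was that of HT replicate 2, the lowest of all 15 valves in 17 of 35 members. Erythroid markers, which can come from blood and its precursors, summed to 101 to 480 units in HC/HT, 239 to 12171 in HC, 7.25 to 394 in HT and 175 to 5657 in CON. Endothelial markers summed to 688 to 1027 units in HC/HT, 749 to 1102 in HC, 528 to 997 in HT and 678 to 1159 in CON, and 4 of 8 were above 0 in the knockouts. Valve interstitial and fibroblast markers summed to 5425 to 8126 units in HC/HT, 5780 to 15433 in HC, 4667 to 12933 in HT and 6387 to 16255 in CON, with 5 of 8 above 0 in the knockouts. With deposited totals these sums moved with the cell cycle means within HT and HC as well, and they were not rescaled either. HT replicate 1 had 12933 units, against 4667, 5052 and 5570 in HT replicates 2 to 4, and HC replicates 1 to 4 had 12632, 15044, 15433 and 5780 units with cell cycle means of 0.37, 0.54, 0.59 and 0.02. In CON the highest sum, 16255 units, was that of replicate 2 (mean -0.05), not of replicate 3. Melanocyte markers summed to 136 to 263 units in HC/HT, 75.1 to 173 in HC, 21.8 to 78.0 in HT and 82.6 to 192 in CON. The melanocyte sums ranked the valves in the order of the cell cycle means within HC and HC/HT, and not within HT or CON. Adipocyte markers summed to 3.72 to 9.70 units in HC/HT, 4.21 to 21.2 in HC, 1.27 to 41.6 in HT and 4.60 to 26.8 in CON. The part of these cell types in the levels of the cell cycle genes was not tested.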

How the data were processed

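RNA-seq was made from the aortic valves of 15 mice (3 HC/HT, 4 HC, 4 HT and 4 CON) of 16 planned. Per the labels' protocols, total RNA was extracted with Trizol, cleaned on RNeasy columns and DNase treated, 1 ng was amplified as cDNA with Nugen Ovation RNA-Seq v2, and the KAPA hyper prep kit gave indexed libraries. Per the submitters' processing notes, FastQC 0.11.2, Bowtie 1.0.1, SAMtools 0.1.9, edgeR and build mm10 were used, without roles. The deposited values are a score: whole numbers that the authors normalised and rounded, with totals from 10207928 to 10210305. The sources used here give neither the normalisation step nor the handling of shared reads. The values were whole multiples of a step larger than 1 in 2 of 15 libraries (95% of low values required). HT replicate 2 had a step of 1, which any whole number meets, and was not counted. Reads were therefore not recovered and no count test was run. A further 1 column had no name and was not used. Libraries were grouped by their titles.

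Values were multiplied by 0.0979537 (units). Genes at 1 unit or more in at least 4 libraries (15004) entered 1 limma fit (version 3.58.1, R 4.3.3) of all 15 libraries on log2(units + 1), with group and sex as terms and moderated variances (trend and robust). The pseudocount of 1 makes fold changes of low genes smaller. Tests were two-sided, with Benjamini-Hochberg adjustment over the 15004 genes of each of 7 comparisons and a threshold of 0.05. The fit was tested on simulated data, where most changes of a log2 size of 1 between HC and CON were not recovered, so that a member which did not pass is not shown to be unchanged. The members, the lists of other genes and the cell type markers were chosen with earlier results of these data known, so lists are described by counts and medians beside those of all genes, with no list test. Values in every mouse are given for members with an adjusted p under 0.05, for the 3 with the smallest p in each of HC/HT, HC and HT against CON and in the knockout comparison, and for Mki67, Top2a, Cdk1, Ccnb1, Mcm2, Pcna and Rrm2. From the other lists the rule named genes that passed, the 2 with the smallest p in HC and HC/HT against CON, and Ccnd1 and Cdkn1a. Of the names, 17944 matched a current and 864 an older mouse symbol. Gene positions are those of GENCODE M21 on mm10. The alternatives were median-of-ratios and quantile scaling, a pseudocount of 0.25 or 4, a filter at 5 units or none, no sex term, a replicate block, array weights, only the groups compared, and leaving out each library. Leaving out the 3 least correlated libraries, and median-of-ratios scaling without HT replicate 1, were added after seeing the data. Shares of all genes at an unadjusted p under 0.05 were taken with all 15 libraries and deposited totals only, not in the alternatives. Precision is limited by the number of mice and by unknown depth.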

Additional observations from a re-analysis of the deposited data

Results flagged for a closer look

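In groups of 4 valves, a valve whose gap to the nearest other exceeded 0.829 of the group's range was looked at again. This was so in 7 of 105 gene and group combinations of the members. Chance would give about 5.2 at 1 in 20 if the combinations were independent. The members varied together within groups, so the 7 cannot be judged against that figure. In 6 of the 7 the valve was HT replicate 1. Top2a was at 37.6 units there, against 6.37 to 10.5 in the other HT valves. Cdk1 was at 4.60 units, against 0 to 0.490. Rrm1 was at 19.4 units, against 6.37 to 7.74, and Mcm7 at 8.23 units, against 6.37 to 6.66. The cytokinesis genes Ect2, at 3.53 units against 0.980 to 1.27, and Anln, at 22.0 units against 10.2 to 11.9, did the same. The exception was Cdc20, the activator of the anaphase complex, at 4.80 units in HC replicate 1 against 2.55 to 2.84 in the other HC valves. HT replicate 1 is female and had 43.5% of its total in the 4 most abundant rows. That was inside the range of all libraries but below the 49.0% to 62.7% of the other HT valves. Its median-of-ratios factor was the highest in HT, at 1.076 against 0.626 to 0.965. Its macrophage marker sum was 1652 units against 187 to 605 in the other HT valves. Its valve interstitial and fibroblast marker sum also stood apart, at 12933 units against 4667 to 5570. The part of these in its cell cycle levels was not tested.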

How the results depend on the processing

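With deposited totals no member passed in any of the 7 comparisons, and 140 of 146 alternatives gave that same count. The exceptions were array weights (3 members in HC against CON, 2 in HC/HT against CON and 1 in the knockout comparison), no sex term (1 in the knockout comparison) and leaving out HT replicate 1. In each of these exceptions, more of all genes passed too. When each library was left out, the count ran from 0 to 1 in HC/HT against HT and from 0 to 5 in the knockout comparison, and was 0 in the others. Of 146 alternative medians, 143 moved by less than 0.39, the SD between mice. That limit is wider than some of the medians themselves, so a median within it may still have changed sign. The HT against CON median did so, from -0.24 to 0.02 without HT replicate 2. The count of 143 therefore does not show that directions were stable. The medians that moved further were those of HT against CON, at 0.17 with median-of-ratios and 0.21 with quantile scaling, and that of HC/HT against HT, at 0.00 without the 3 least correlated libraries. When each library was left out, the member median ran from 0.23 to 0.45 in HC/HT against CON, from 0.36 to 0.59 in HC against CON, from -0.51 to 0.02 in HT against CON and from 0.38 to 0.76 in the knockout comparison. Of 419 alternatives for 19 results on single members, 406 kept their direction and side of the threshold, 9 newly passed and 4 reversed. Ccnb1 in the knockout comparison ran from -0.25 to 0.37 when each library was left out, and reversed to -0.03 without HC/HT replicate 2, -0.00175 without HC replicate 2, -0.25 without HT replicate 2 and -0.36 without the 3 least correlated libraries. The cause was not tested.

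The replicate block gave 0 members past the threshold in every comparison. Its medians were 0.34 in HC/HT against CON, 0.49 in HC against CON, -0.23 in HT against CON and 0.47 in the knockout comparison. The numbers share only a label: the deviations of 21 same-numbered pairs correlated between -0.125 and 0.275 (median 0.072), 8 pairs were over 0.1, and 4 of 15 libraries correlated best with their own number.

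Median-of-ratios scaling moved the median of all genes from -0.20 to -0.02 in HC/HT against CON, from -0.18 to -0.02 in HC/HT against HC, from 0.21 to -0.01 in HC/HT against HT and from -0.42 to -0.01 in HT against CON. Unknown depth and 3 or 4 valves per group limit what can be detected in members near 1 unit.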
